A study of Drosophila melanogaster with 14 samples.

Results

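The 5 ACX genes of Drosophila melanogaster (ACXA, ACXB, ACXC, ACXD and ACXE) were followed across all 14 whole-fly libraries of a study of Cyp6g1 knockdown. They were 5 of 10844 genes named on the array, and each had 1 probe set. They had been chosen by annotation, as a family described as male-limited and rising with hours on the assay plate, so levels by sex and hour are given as a description with no test, and only the contrast of genotypes was tested. ACXA showed both parts of the description. ACXC was also far lower in the female library and higher at 8 h than at 0 h, but its highest level was at 5 h. Neither is a test of the description, since that pattern chose the genes. In ACXD neither part of the description was seen, and ACXB and ACXE gave signals among the dimmest 7% of probe sets. The 5 genes are therefore called here by their gene names and not as testis genes.

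The ACX proteins are membrane adenylyl cyclases, which make cyclic AMP (cAMP) from ATP. cAMP activates protein kinase A and is broken down by phosphodiesterases. The ACX genes form an insect branch of this enzyme family and have been described as expressed in the male germ line, where spermatocytes transcribe most of the genes that spermatids later use. In the RefSeq gene order of the release 6 assembly, ACXC, ACXB, ACXA and ACXE lie in a row on chromosome 2L with no other protein-coding gene between them, and ACXD lies on 3L beside CG32301 and CG32305. The deposited files name no build, so no coordinates are given. Probe sequences were not used here, and cross-hybridisation among these related genes was not tested.

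Flies were 2 to 3 days old and were held on sucrose agar treated with solvent for 0, 2, 5 or 8 h. Knockdown flies were w; Act5C-GAL4/CyO with a UAS hairpin against Cyp6g1 over TM3Sb, 1 male library at each hour and 1 female library at 0 h. Control flies were w; Act-GAL4/CyO with no hairpin over TM3 Sb, 2 male libraries at each hour. Both genotypes thus carried an actin driver, which acts in most cells, and the same kinds of balancer, and the knockdown differed in the transgene and in the name of the driver, so the loss of Cyp6g1 and these differences cannot be told apart. A library held RNA of 1 to 3 experiments, each a cohort of flies of its own day. The 0 h libraries labelled knockdown male replicate 1, knockdown female and control male replicate 1 came from 1 experiment each. Whether both controls of an hour were separate flies is not stated, and the spread behind each p-value may therefore be technical.

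Cyp6g1, the targeted gene, lay between 32.5 and 55.0 in knockdown males and between 361.1 and 815.8 in control males (intensity on a linear scale), which fitted those labels. A further 0 h male library had conflicting labels. Its title called it control, the description of the series paired it with a knockdown library, and it had Cyp6g1 at 27.9, so it entered no main comparison. Summed intensities of 16 yolk, eggshell and ovary genes were 76543 in the female library. They ran from 1343 to 11483 in knockdown males, with the highest sum in replicate 1 (0 h), and from 1176 to 3215 in control males, with the highest in replicate 5 (5 h). No marker was listed at 0. For 23 genes of spermatocytes and spermatids the lowest sums among males were 17052 in knockdown male replicate 1 and 19534 in control male replicate 1, the single-experiment males of 0 h. In whole flies, fewer cells of a type and less RNA per cell cannot be told apart.

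ACXA had the widest range of the 5 genes over males, 2.91-fold. In knockdown males its intensity was 43.6 at 0 h, 65.1 at 2 h, 86.2 at 5 h and 87.6 at 8 h. In control males it was 53.6 and 79.2 at 0 h, 91.6 and 82.0 at 2 h, 109 and 95.9 at 5 h, and 127 and 112 at 8 h. Each knockdown library lay below both controls of its hour, and every 8 h male lay above every 0 h male. The library with conflicting labels had 63.4, between the 2 controls of 0 h, and the knockdown female had 11.9, below all 13 male libraries.

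ACXC had nearly the same range, 2.87-fold, but its highest level was at 5 h. In knockdown males it had 32.0 at 0 h, 49.2 at 2 h, 73.1 at 5 h and 57.8 at 8 h. In control males it had 44.6 and 55.8 at 0 h, 74.1 and 72.2 at 2 h, 91.7 and 78.2 at 5 h, and 74.8 and 75.1 at 8 h. Each knockdown library was again below both controls of its hour, and each 8 h male above each 0 h male. The library with conflicting labels, not counted in this, had 56.4, above both controls of 0 h. The knockdown female had 5.82.

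ACXB, which lies between ACXC and ACXA on the chromosome, differed little between libraries. It had 6.2, 7.72, 7.82 and 8.26 in knockdown males at 0, 2, 5 and 8 h. In control males it had 6.68 and 7.06 at 0 h, 7.78 and 6.37 at 2 h, 6.81 and 8.08 at 5 h, and 8.58 and 8.21 at 8 h. The 8 h males lay above the 0 h males, while the genotypes overlapped. In the 13 male libraries 2.2% to 6.89% of all probe sets were at or below its signal. In the female library, where it had 5.21, the share was 1.65%. RMA has no floor and a probe set's affinity sets its brightness, so such a dim signal says little on how much transcript was there.

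ACXE was also dim, with 2.45% to 5.81% of probe sets at or below it in males. It had 5.95, 7.07, 6.69 and 6.32 in knockdown males at 0, 2, 5 and 8 h, against a lowest value of 5.85, a median of 6.49 and a highest of 8.18 in the 8 control males. Its hours and genotypes overlapped, and the female library had 5.37, below all males.

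ACXD was level in every group. It had 31.2, 31.1, 32.1 and 32.3 in knockdown males at 0, 2, 5 and 8 h, and in the 8 control males a lowest value of 29.8, a median of 33.0 and a highest of 34.6. The knockdown female had 30.8, inside the range of males, and the library with conflicting labels had 35.2. In male libraries 33.2% to 38.0% of probe sets were at or below its signal.

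**Figure D1:**
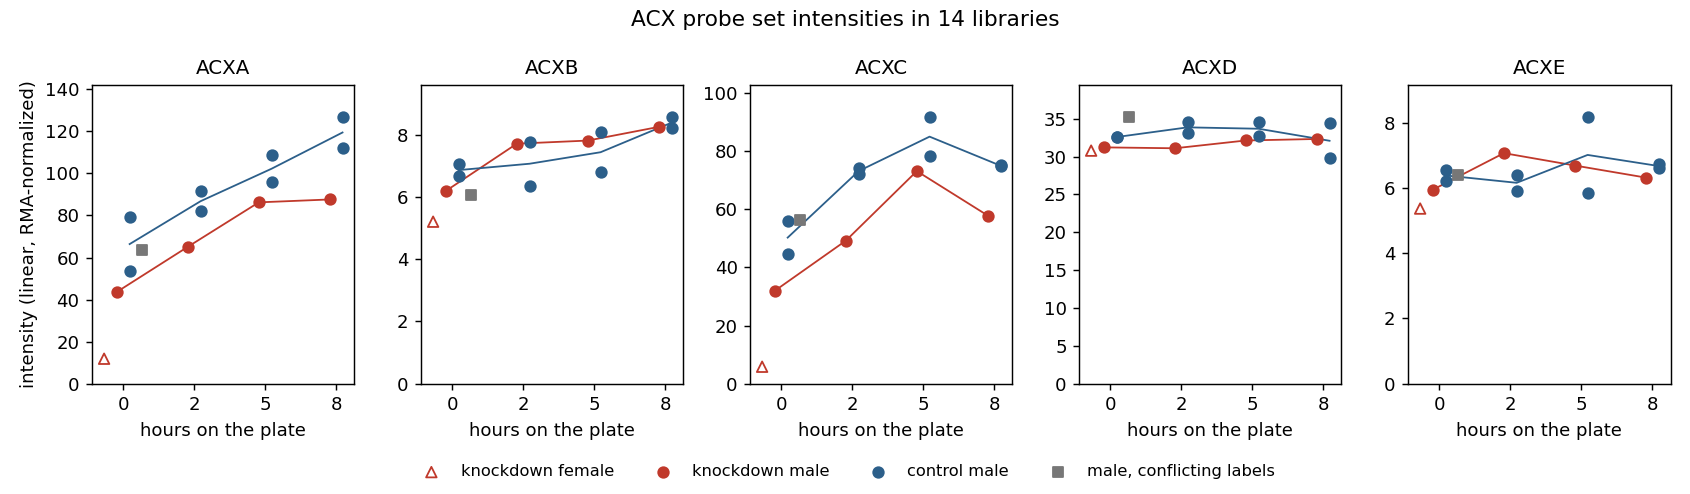
Intensity (linear scale, from 0) of the 5 ACX genes against hours on the plate, 1 point per library, with lines through the mean of each genotype at each hour. ACXA and ACXC are higher at 2, 5 and 8 h than at 0 h in both genotypes, with the knockdown line below the control line, ACXD is level near 32, and ACXB and ACXE stay under 9.

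Between the sexes the genes fell into unlike groups. Relative to knockdown male replicate 1, which also came from 1 experiment at 0 h, the knockdown female had 18.2% of the ACXC level, 27.2% of ACXA, 84.0% of ACXB, 90.3% of ACXE and 98.6% of ACXD. That male library had the highest yolk, eggshell and ovary sum among the males, as given above. Against the mean of all 4 knockdown males these shares were 11.5% for ACXC and 17.4% for ACXA. In 4 of the 5 genes the female library lay below all 13 males, which held for 24.9% of all probe sets. For the 23 spermatocyte and spermatid genes the median share relative to knockdown male replicate 1 was 5.14%. There was 1 female library, so the spread between females is unknown.

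Over hours, ACXA and ACXC had higher means at 2, 5 and 8 h than at 0 h. On the log2 scale and over both genotypes, ACXA was higher by 0.47 at 2 h than at 0 h, by 0.29 at 5 h than at 2 h and by 0.16 at 8 h than at 5 h. ACXC was higher by 0.57 and 0.33 in the first intervals and then had a difference of -0.23 between 8 and 5 h, which was -0.34 in knockdown and -0.18 in control males. ACXA averaged 108.9 ± 19.8 at 8 h and 58.8 ± 18.3 at 0 h (SD, n = 3 each), 1.89-fold or 0.92 on the log2 scale. ACXC averaged 69.2 ± 9.90 at 8 h and 44.1 ± 11.9 at 0 h (SD, n = 3 each), 1.60-fold or 0.68. The log2 difference between 8 and 0 h was 0.33 in ACXB, 0.072 in ACXE and -0.00046 in ACXD. All 8 h males lay above all 0 h males in 3 of the 5 genes (ACXA, ACXB and ACXC), a pattern seen in 10.7% of all probe sets, and nothing is read from it because hours chose the genes.

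These differences rested in part on the single-experiment libraries of 0 h. Without them, which left control male replicate 2 as the lone 0 h library, the difference between 8 and 0 h was 0.44 in ACXA and 0.30 in ACXC. That between 2 and 0 h was -0.0068 in ACXA and 0.20 in ACXC. The later means held the lower knockdown libraries too, so genotype was not balanced in these differences. Control male replicate 2 had log2 levels of 6.31 in ACXA and 5.80 in ACXC. The control means were 6.44 and 6.19 at 2 h, and 6.90 and 6.23 at 8 h. Between 8 and 2 h, where every library held 3 experiments, it was 0.45 in ACXA and 0.10 in ACXC. Control male replicate 1, from 1 experiment, had 67.8% of the ACXA level and 79.9% of the ACXC level of control male replicate 2, from 2 experiments at the same hour. The 23 spermatocyte and spermatid genes had the same kind of step, with a median of 68.7%.

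Ordering the 8 combinations of genotype and hour put the single knockdown library of 0 h lowest in ACXA, ACXB, ACXC and ACXE. In ACXA the order then ran through knockdown 2 h, control 0 h, knockdown 5 h, control 2 h, knockdown 8 h and control 5 h to control 8 h, at log2 means from 5.45 to 6.90. Knockdown 2 h and control 0 h were 0.0013 apart, and the neighbours among knockdown 5 h, control 2 h and knockdown 8 h were at most 0.016 apart, both less than the pooled SD of 0.22 between controls of an hour. In ACXC the order was knockdown 0 h, knockdown 2 h, control 0 h, knockdown 8 h, knockdown 5 h, control 2 h, control 8 h and control 5 h, from 5.00 to 6.40. There knockdown 2 h was 0.021 from control 0 h, and the neighbours among knockdown 5 h, control 2 h and control 8 h lay at most 0.036 apart, less than their SD of 0.14. In ACXD and ACXE no neighbours in the order differed by more than the SD, which was 0.082 and 0.18. In ACXB only the lowest pair did, knockdown 0 h and control 0 h, by 0.15 against 0.14.

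The pattern that chose the genes was one of sex and hours, though their levels by genotype were in view as well. The contrast of genotypes asked whether the ACX genes differed between knockdown and control males. None of the 5 passed when hour was left out of the model. ACXA averaged 70.7 ± 20.7 in knockdown males (SD, n = 4) and 93.7 ± 22.7 in control males (SD, n = 8), a log2 difference of -0.42 (SE 0.22; limma adjusted p = 0.518). ACXC averaged 53.0 ± 17.2 in knockdown males and 70.8 ± 14.4 in control males, a log2 difference of -0.45 (SE 0.20; limma adjusted p = 0.5002). In the same fit 16 of 13966 probe sets passed, or 0.115%, and 0.0716% were lower in the knockdown. The differences of the others were 0.0097 (SE 0.097) in ACXB, -0.059 (SE 0.055) in ACXD and -0.0071 (SE 0.085) in ACXE.

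Within each hour, both ACXA and ACXC had their lowest value in the knockdown. The library with conflicting labels was left out. Counted as a knockdown library, it would not lie below both controls of 0 h in either gene. The knockdown library had 67.0%, 75.1%, 84.5% and 73.5% of the control level of ACXA at 0, 2, 5 and 8 h, and 64.0%, 67.3%, 86.3% and 77.1% of that of ACXC. Of all probe sets, 6.59% lay below both controls at all 4 hours, against 2 of the 5 ACX genes. The same held for 16 of the 23 measured spermatocyte and spermatid genes. With time point as a factor, ACXC passed, at the same difference of -0.45 (SE 0.085) and an adjusted p of 0.0481 in limma, while ACXA did not, at an SE of 0.10 and an adjusted p of 0.0688. Of all probe sets 0.673% passed in that fit, and 0.508% passed as lower in the knockdown. With hours ignored, the exact two-sided permutation p was 0.127 for ACXA and 0.101 for ACXC over 495 arrangements.

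ACXC passed in no other fit, but a fit that left hour out could not test that call. Among the other fits, hour was kept only with the controls of each hour averaged and time point as a block. There the adjusted p in limma was 0.0616 for ACXC and 0.0539 for ACXA. Over all alternatives, most with hour left out, it ran from 0.0481 to 1.00 for ACXC and from 0.0539 to 1.00 for ACXA. Without knockdown male replicate 1 the differences were -0.23 in ACXC and -0.21 in ACXA. Without it and control male replicate 5, the males with the highest yolk, eggshell and ovary sums, they were -0.17 in each. Hour was left out of these fits, and without knockdown male replicate 1 only controls stood for 0 h, so the hours were not balanced. Without any 0 h library the differences were -0.39 in ACXC and -0.37 in ACXA.

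**Figure D2:**
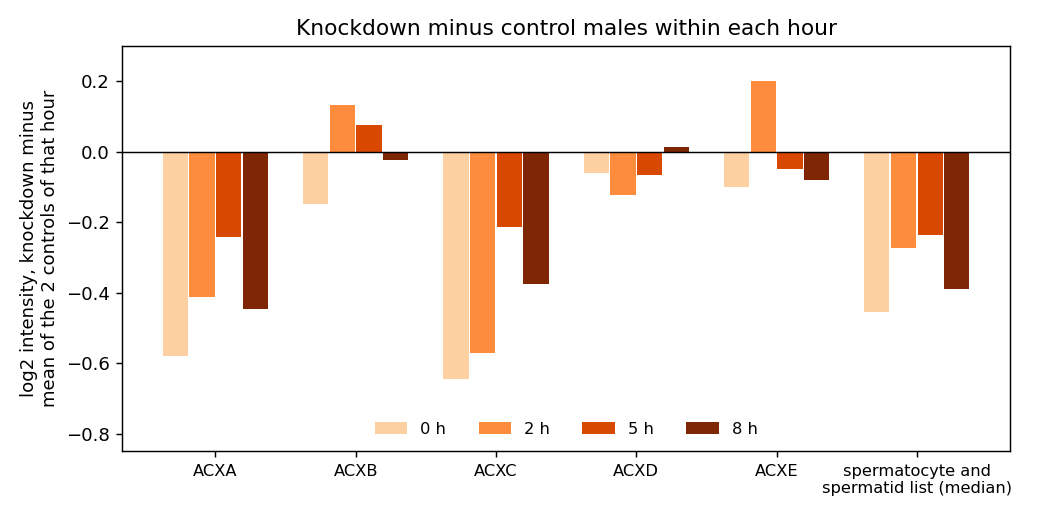
Difference in log2 intensity between the knockdown library and the mean of the 2 control libraries of the same hour, for each ACX gene and for the median of 23 spermatocyte and spermatid genes, with 1 bar per hour and no error bars because each hour has 1 knockdown library. All bars of ACXA, ACXC and the list lie below 0, while those of ACXB, ACXD and ACXE lie on both sides of it.

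The difference between genotypes did not change detectably with hours. The slope of the knockdown difference was 0.019 log2 units per hour (SE 0.038) in ACXA and 0.042 (SE 0.050) in ACXC, with adjusted p of 0.976 and 0.943 in limma. The other 3 genes had slopes between -0.0099 and 0.012. No probe set passed this limma test (0%), and 720 had an unadjusted p under 0.05.

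Of the 23 measured genes of spermatocytes and spermatids, such as the sperm tail gene Mst87F, none passed the knockdown test with hour left out, and 1 (ocn, named after its value was seen) was called lower with time point as a factor, at a log2 difference of -0.54 and a limma adjusted p of 0.0481, where 0.508% of all probe sets were. Differences of the list were negative in 22, or 95.7%, with a median of -0.32. Over all probe sets 47.2% were negative and the median was 0.0076. The 23 genes were read in the same 12 male libraries, so they are not separate observations of genotype. Within hours the median of the list was -0.45, -0.27, -0.24 and -0.39 at 0, 2, 5 and 8 h, where ACXA had -0.58, -0.41, -0.24 and -0.44 and ACXC had -0.64, -0.57, -0.21 and -0.37. Measured relative to this list in each library, an alternative added after the values were seen, the knockdown difference was -0.082 (SE 0.15) in ACXA and -0.11 (SE 0.14) in ACXC. The summed intensity of the list ran from 17052 to 28142 in knockdown males and from 19534 to 36399 in control males.

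The same list had a median difference of 0.42 between 8 and 0 h. Relative to it, the difference was 0.49 in ACXA and 0.24 in ACXC, and it was -0.10, -0.43 and -0.36 in ACXB, ACXD and ACXE. The 10 measured meiotic arrest genes, which regulate transcription in spermatocytes, had medians of -0.065 between genotypes and 0.12 between 8 and 0 h. None was called in the knockdown test, which called 0.115% of all probe sets. The 6 measured genes of germline stem cells and spermatogonia had 1 negative difference between genotypes, a median of 0.028 and no call. Their summed intensity was 808 in the female library, against 135 to 190 in knockdown males and 134 to 193 in control males. This list therefore does not single out the male germ line here. The medians between genotypes and between 8 and 0 h were -0.087 and 0.63 in the 13 accessory gland genes. In the 4 ejaculatory duct and bulb genes they were 0.080 and 0.42. They were 0.27 and -0.34 in the 16 yolk, eggshell and ovary genes. The part of any of these in the levels of the ACX genes was not tested.

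Across the 12 male libraries, the profiles of ACXA and ACXC ran together. Their Pearson r was 0.917 and their Spearman rho 0.916, and r was 0.756 over 10 libraries without the single-experiment ones of 0 h. Against the shift of the spermatocyte and spermatid list r was 0.917 for ACXA and 0.955 for ACXC, and 0.719 and 0.876 without those libraries. ACXB had an r of 0.670 with ACXA, which was 0.356 without them. Its r was 0.468 with ACXC and 0.488 with the list, and both turned negative without those libraries, at -0.103 and -0.126. The remaining pairs of ACX genes had r between -0.146 and 0.461. In 349 genes the profile was closer to ACXA than that of ACXC was. These values describe libraries that share hours, genotypes and pools, and carry no test.

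**Figure D3:**
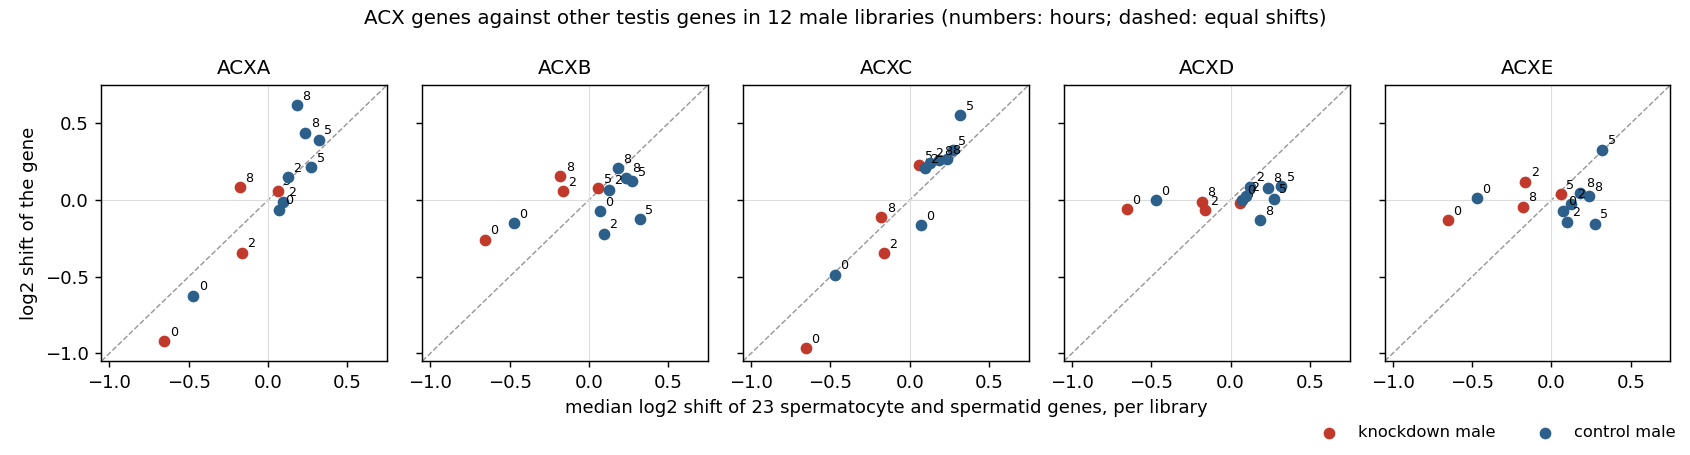
Log2 shift of each ACX gene from its mean over 12 male libraries (y) against the median shift of 23 spermatocyte and spermatid genes (x), 1 point per library with its hour beside it, red for knockdown and blue for control. In ACXA and ACXC the 0 h libraries of 1 experiment lie lowest on both axes, and the genes span 1.54 and 1.52 log2 units against 0.97 for the list, so the points are steeper than the dashed line of equal shifts. ACXB, ACXD and ACXE span at most 0.48.

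The genes whose profile was most like the mean of the 5 centred ACX profiles, over the same 12 libraries and 10839 other genes, were CG15109, CG7140, CG18568, CG16852, Hsp60C, CG8565, CG15111, CG13243, Pof and CG3213. Their Pearson r ran from 0.976 to 0.987, where the median over all genes was -0.095 and 466 genes had r above 0.9. It ran from 0.917 to 0.968 without the single-experiment libraries of 0 h. The ACX profiles were not scaled, so ACXA and ACXC, which span 1.54 and 1.52 log2 units, weighed most in their mean. The other ACX genes span at most 0.48. Hsp60C encodes a mitochondrial chaperonin and Pof a protein that binds the fourth chromosome. CG15109, the closest, had 12.4 in the female library, against 208.2 to 466.3 in knockdown males and 286.3 to 603.3 in control males. All 10 were lower in the female library than in every male, as were 24.9% of all probe sets.

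Genes beside the ACX genes had smaller differences than ACXA and ACXC. CG15483 and kek1 precede ACXC and CG16800 follows ACXE. Their log2 differences between 8 and 0 h were 0.25, -0.15 and -0.12, and between genotypes -0.16, -0.010 and -0.13, and none was called for genotype. Beside ACXD, CG9018 had -0.0063 and 0.086 and CG32305, itself annotated as an adenylyl cyclase, 0.20 and 0.047. CG32301 was not analysed here.

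None of the 6 other measured adenylyl cyclase genes passed the knockdown test in either direction, with time point as a factor or without. None passed for the change with hours either. Of all probe sets, 0.673% and 0.115% passed these knockdown fits and 0% passed for the change with hours. At such shares, no call among 6 genes says little about them. The gene rut encodes the calcium-activated cyclase known from olfactory learning. It had 2290, 2273, 2702 and 2591 in knockdown males at 0, 2, 5 and 8 h, against 2552 and 2669, 2565 and 2480, 3314 and 3450, and 3211 and 3211 in control males. Each knockdown value lay below both controls of its hour, with a log2 difference of -0.24 and a limma adjusted p of 0.490, or 0.0581 with time point as a factor. Its female level of 2130, from 1 library, was below all males, as in all 6 of these cyclases and in 24.9% of all probe sets. Relative to knockdown male replicate 1 the female library had 93.0% of the rut level and 77.5% to 88.0% of the other 5, against the 27.2% of ACXA and 18.2% of ACXC given above. The differences were -0.28 in Ac13E, -0.10 in Ac76E, -0.0077 in Ac78C, 0.047 in CG32305 and 0.055 in CG43373.

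Downstream and upstream of cAMP, none of 14 measured pathway genes passed the knockdown test, their median difference being 0.023. That test called 0.115% of all probe sets. Pka-C3, of the family of protein kinase A catalytic subunits, and Galphas, the stimulatory G protein subunit that activates cyclases, were the 2 of 14 that lay below both controls at all 4 hours, as 6.59% of all probe sets did, and are named after their values were seen. Pka-C3 had 37.4, 64.1, 84.0 and 70.0 in knockdown males at 0, 2, 5 and 8 h, against 54.9 and 75.4, 82.3 and 83.7, 103 and 102, and 83.0 and 96.8 in control males. Its difference was -0.45 (SE 0.20) with a limma adjusted p of 0.492, or 0.0579 with time point as a factor. That of Galphas was -0.29 (SE 0.12), with 0.488 and 0.150. Akap200, which encodes an anchoring protein of protein kinase A, was the brightest of the list and had a difference of 0.28 (SE 0.15) with a limma adjusted p of 0.522. None of 10 measured guanylyl cyclase genes, which make cyclic GMP, passed, with differences from -0.043 to 0.11.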

How the data were processed

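RNA of whole flies was hybridised to 1-colour Affymetrix arrays, per the labels' protocols. The deposited intensity values are linear and were normalized with RMA, per the submitters' processing notes, with software and settings not given in the sources used here. Library medians lay between 47.2 and 48.8. RMA sets all arrays to 1 distribution, which hides any difference in total RNA. Of 14010 probe sets, 44 spike-in controls were left out and 13966 tested on the log2 scale with no filter on low values. The platform annotation gave 1 symbol to 12443 and the RefSeq table of the release 6 assembly updated 12394 of them. The brightest probe set stood for a gene with several.

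Tests used limma 3.58.1 under R 4.3.3 (lmFit and eBayes), with Benjamini-Hochberg adjustment over all 13966 probe sets and a threshold of 0.05. They covered 4 knockdown and 8 control male libraries, and were tried on simulated data. Replicate numbers follow the accession order and pair nothing. No pair of controls of an hour was identical. List shifts are median log2 deviations from each gene's mean over the 12 male libraries. The genes and lists were chosen with earlier results of these data known. Genes named were the ACX genes, listed cyclases, list members that passed, the 10 closest profiles and, from each other list, up to 4 of the brightest. Pka-C3, Galphas, ocn and the neighbouring genes CG15483, kek1, CG16800 and CG9018 fall outside this rule. The lists of ejaculatory duct and bulb, of germline stem cells and spermatogonia, and of fat body, muscle and neurons had no gene called for genotype. The number of arrays limits the precision.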

Additional observations from a re-analysis of the deposited data

Results flagged for a closer look

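In 10 groups examined (each ACX gene in the 4 knockdown and in the 8 control males), 2 held a library far from the others, where chance gives about 1 in 20 groups. ACXD had an intensity of 29.8 in control male replicate 7 (8 h), against 32.6 to 34.6 in the other control males. ACXE had 8.18 in control male replicate 5 (5 h), against 5.85 to 6.73 in the other control males, on a probe set among the dimmest of the array. Control male replicate 5 also had the highest summed yolk, eggshell and ovary signal among control males, at 3215.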

How the results depend on the processing

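The knockdown test called 16 probe sets. The count was 94 with time point as a factor, 31 without the 0 h libraries and 28 without the single-experiment 0 h libraries. With the library of conflicting labels it was 0 as a control and 13 as knockdown, all 13 among the 16. Relative to the spermatocyte and spermatid list it was 4, a scaling that moved the median of all probe sets to 0.35. Leaving out 1 library at a time gave 7 to 19, the lowest without knockdown male replicate 4. The count for the change with hours was 0 in all 16 alternatives. ACXA and ACXC stayed negative for the knockdown in all 24 alternatives each, with leave-one-out ranges of -0.54 to -0.21 and -0.63 to -0.23, and ACXC alone passed, in 1 of them. That 1 had time point as a factor, while the leave-one-out fits left hour out.

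Genes with differences near 0 changed sign without being called. ACXB was at -0.050 with the library of conflicting labels as knockdown and from -0.040 to 0.098 with 1 library left out. ACXD was at 0.28 and ACXE at 0.33 relative to the list. ACXE was also at 0.024 without 0 h, 0.036 without the single-experiment libraries, 0.082 without knockdown male 1 and control male 5, and from -0.048 to 0.039 with 1 left out. The slopes per hour of ACXA, ACXB and ACXC were -0.0038, -0.018 and -0.00010 without the single-experiment libraries, and -0.029, -0.023 and -0.022 without knockdown male 1 and control male 5. With 1 library left out, slopes ran from -0.032 to 0.088 in ACXA, -0.019 to 0.027 in ACXB, -0.029 to 0.17 in ACXC, -0.00068 to 0.019 in ACXD and -0.041 to 0.015 in ACXE.

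The median difference of the 5 genes between 8 and 0 h was 0.33, which is the value of the dim ACXB while the others ran from -0.00046 in ACXD to 0.92 in ACXA, and it was 0.28 to 0.38 with 1 library left out. It was 0.24 without the single-experiment libraries, which left control male replicate 2 alone at 0 h, and -0.10 relative to the list. The causes were not tested. By replicate number, no paired analysis was possible because the labels give none, while with the controls of an hour averaged and time point as a block the knockdown count was 22. No ACX gene had several probe sets, so their mean was not run. Signals of ACXB and ACXE near the bottom of the array limit what could be seen.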
